A study of Homo sapiens with 6 samples.

Results

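In BEAS2B, an established human cell line from bronchial epithelium, 250 stretches of the genome carried strong QKI-5 crosslinking on one strand and not a single event in the control libraries. Each stretch is a strand-specific window of 10 kb on the build hg19. The members are the windows with 0 events in all 3 controls and at least 20 EPM in each of the 3 QKI-5 libraries, where EPM are crosslink events per 1000000 events of the library. They are 250 of 174732 windows with any event (0.143%) and 250 of the 8009 windows (3.12%) that reach 20 EPM in each QKI-5 library, called strong windows below. The members were chosen by the event counts of all 6 libraries in the windows themselves, so those levels and their contrast with the controls are given as a description. Held-out libraries, neighbouring windows and positions within the windows had no such part in the choice.

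QKI-5 is the nuclear form of Quaking, an RNA-binding protein of the STAR family with a KH domain. It is known to recognise a short element with an ACUAA core, often in introns of precursor messenger RNA, and to regulate alternative splicing and the formation of circular RNA. In iCLIP, ultraviolet light links protein to RNA in living cells, the protein is precipitated, and reverse transcription stops at the linked nucleotide, so that each event marks a contact to the base. In lung epithelial cells it is known for its part in splicing.

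The series holds 3 libraries precipitated with a self-made antibody against QKI-5 and 3 control libraries made with no antibody, numbered 1 to 3 in each group. All 6 come from irradiated BEAS2B cells, and no genotype, drug or time differs between the groups. Whether each replicate was its own culture is not stated in the labels. The p-values then reflect the spread of these 6 libraries alone, and that spread may be technical. No hg19 annotation was used here, so windows are given by position, without gene names or transcript regions, and cell type markers were not analysed here.

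The QKI-5 libraries held 2143279 to 7283982 events and the controls 29810 to 137926. One event is 7.25, 24.1 and 33.5 EPM in controls 1, 2 and 3, and 0.137, 0.467 and 0.346 EPM in QKI-5 replicates 1, 2 and 3. A window at the limit of 20 EPM corresponds to 146, 42.9 and 57.8 events in the QKI-5 libraries. The same share of a control library corresponds to 2.76, 0.830 and 0.596 events, 4.18 in the 3 controls together. An empty window is therefore a coarse value at the depth of the controls, and control replicate 1 carries most of its weight. In bulk libraries, fewer RNA molecules and less protein bound per molecule cannot be told apart.

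The members held 0.815, 0.745 and 0.749% of all events in QKI-5 replicates 1, 2 and 3, while all strong windows together held 42.1, 46.0 and 41.5%. In QKI-5 replicate 1 the members ranged from 20.04 to 82.2 EPM with a median of 30.3, in replicate 2 from 20.06 to 76.5 with a median of 27.5, and in replicate 3 from 20.08 to 72.3 with a median of 27.0. Most members lay close to the limit. The lowest of the 3 values was under 25 EPM in 148 members and at least 40 EPM in 12. Within a member the highest library exceeded the lowest by a median factor of 1.30, by more than 1.5 in 52 members and by more than 2 in 8. QKI-5 replicate 2 was the lowest library in 119 members and QKI-5 replicate 1 in 38, so the limit was mostly set by replicates 2 and 3. Both strands were represented alike, with 125 members on each.

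**Figure D1:**
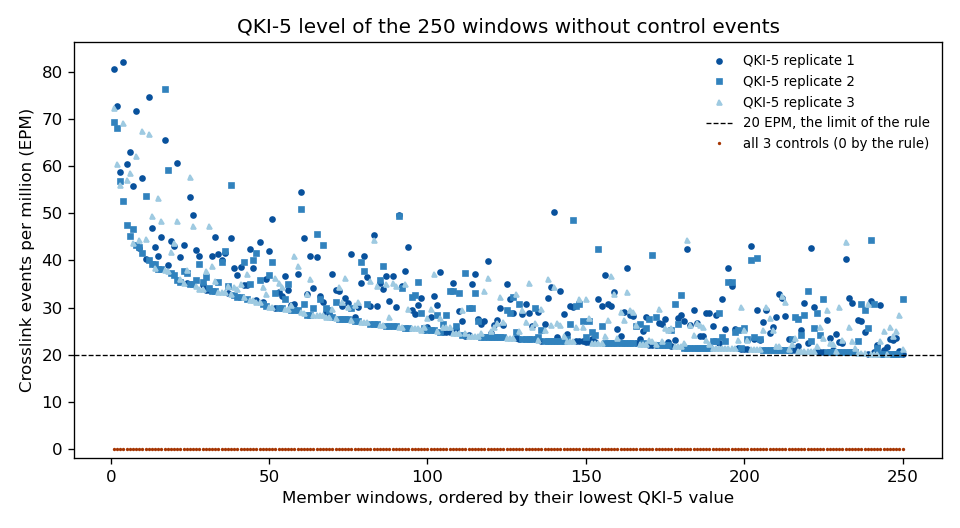
Level of every member in each QKI-5 library (EPM, y axis), with members ordered along the x axis by their lowest QKI-5 value; the dashed line is the limit of 20 EPM and the points at 0 are the controls, which are empty by the rule. The curve flattens quickly: 12 members have a lowest value of 40 EPM or more and 148 lie under 25 EPM.

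The strongest member lay on chromosome 13, plus strand, 42880001 to 42890000, at 80.6, 69.5 and 72.3 EPM in QKI-5 replicates 1, 2 and 3. The minus-strand window 46840001 to 46850000 of chromosome 11 held 72.8, 68.1 and 60.6 EPM. These are the only members whose lowest library exceeds 60 EPM. Chromosome 1 followed, where the plus-strand window 168020001 to 168030000 held 58.8, 56.9 and 56.1 EPM, the closest agreement among the top 3. The window 157810001 to 157820000 on the minus strand of chromosome 4 held 82.2, 52.7 and 69.2 EPM. A second member on the plus strand of chromosome 13, 49710001 to 49720000, held 60.5, 47.6 and 57.1 EPM. In both of these QKI-5 replicate 2 was the low library.

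Next in order, the window 90030001 to 90040000 on the plus strand of chromosome 7 held 63.0, 45.3 and 58.5 EPM. Chromosome 5 held the window 80150001 to 80160000 of the plus strand, at 55.7, 46.7 and 43.6 EPM. The plus-strand window 124180001 to 124190000 of chromosome 10 held 71.7, 43.4 and 62.3 EPM. The chromosome 10 window varied more between libraries than the chromosome 5 window, with an SD of 14.4 against 6.31 EPM (n = 3). Levels agreed closely in the plus-strand window 102010001 to 102020000 of chromosome 11, at 42.7, 42.9 and 44.3 EPM, an SD of 0.870 EPM (n = 3). The plus-strand window 1470001 to 1480000 of chromosome 12 held 57.5, 41.5 and 67.5 EPM. That of chromosome 14, 97270001 to 97280000, held 40.2, 53.7 and 44.6 EPM, and there QKI-5 replicate 2 was the high library. The last of the 12, on chromosome 5, minus strand, 81010001 to 81020000, held 74.7, 40.1 and 66.8 EPM. Of these 12 windows 9 lay on the plus and 3 on the minus strand.

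A fold over an empty control cannot be computed. For a window fixed beforehand, a count of 0 allows up to 3 events in the pooled controls (14.3 EPM). The strongest member's pooled QKI-5 level was 5.35 times that floor. The median of this quotient over the members was 2.01, the lowest was 1.44, and 126 members had at least 2. The members were picked for their empty controls, so the quotients are a description and not lower limits of a fold. The members' own pooled QKI-5 levels correspond to 4.33 to 16.1 control events per window, with a median of 6.03.

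At the edge of the rule the values inside and outside were close. The 3 members just inside had a lowest value of 20.04 EPM (chromosome X, minus strand, from 47340001) or 20.06 EPM (chromosome 7, minus strand, from 140470001, and chromosome 9, plus strand, from 125790001). The 3 empty-control windows just outside had a lowest value of 19.9 EPM (chromosome 3, plus strand, from 119220001, and chromosome 20, plus strand, from 32970001) or 19.8 EPM (chromosome 17, minus strand, from 4200001). In all 3 outside windows QKI-5 replicate 1 was the library that missed, with 145, 145 and 144 events. On the control side, 533 strong windows held exactly 1 control event, which was in control replicate 1 for 382 of them. Their strongest reached a lowest value of 69.5 EPM, the same as the strongest member.

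Among all strong windows the members form the low end of a single-peaked distribution of control events. The median strong window held 5 control events, 902 windows held 4, and 748 held 2. The share of windows without a control event depended on the QKI-5 level. It was 5.27% (148 of 2811) where the lowest QKI-5 value was 20 to under 25 EPM, 2.31% (39 of 1686) at 30 to under 40 EPM, and 0.274% (2 of 731) at 60 EPM or more.

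**Figure D2:**
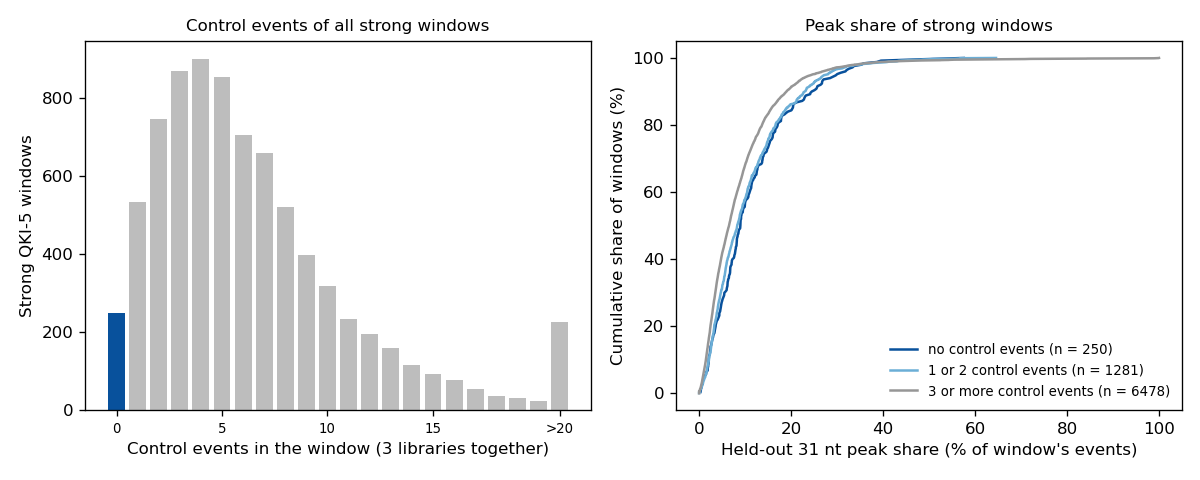
Left, number of strong windows (y axis) by control events in the 3 controls together (x axis), with the 250 members as the blue bar and the largest class, 902 windows, at 4 events. Right, cumulative share of windows (y axis, percent) by the held-out share of events in the 31 nt peak (x axis, percent), where the members' median is 8.98% and that of strong windows with 3 or more control events is 6.51%.

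To read the same contrast in libraries that had no part in the choice, the rule was applied to 2 replicate numbers and the level was read in the QKI-5 and the control library of the number left out. This comparison was added after the data were seen. With replicate 1 left out, 2314 windows had no event in controls 2 and 3 and at least 20 EPM in QKI-5 replicates 2 and 3. They held 34.6 EPM per window in QKI-5 replicate 1 and 21.7 EPM in control replicate 1 (95% exact Poisson interval 21.2 to 22.2), a ratio of 1.59. Of these windows, 2043 (88.3%) had an event in control replicate 1, the deepest control. Among windows with 1 or 2 and with 3 or more events in controls 2 and 3, 92.1 and 95.5% did. In that left-out pair the 2314 windows were thus far from empty in the control. Only 250 of them were members.

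With replicate 2 left out, 539 windows held 26.4 EPM in QKI-5 replicate 2 and 11.9 EPM in control replicate 2 (10.47 to 13.4), a ratio of 2.23. With replicate 3 left out, 521 windows held 28.7 EPM in QKI-5 replicate 3 and 23.7 EPM in control replicate 3 (21.3 to 26.2), a ratio of 1.21. Of the 539 and the 521 windows, 28.9 and 36.3% had an event in the left-out control, and 250 of each set were members. The QKI-5 level exceeded the control level in all 3 left-out pairs, beyond the counting interval of the control. The intervals cover counting error only. The ratio itself ranged from 1.21 to 2.23 between the pairs.

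Windows with 1 or 2 events in the choosing controls gave left-out ratios of 1.43, 1.91 and 1.24 for replicates 1, 2 and 3. Those with 3 or more gave 0.715, 0.892 and 0.898. The empty-control windows therefore stood above the windows with 3 or more control events in all 3 pairs, and above those with 1 or 2 in the pairs of replicates 1 and 2 but not of replicate 3. These ratios divide summed events, so windows with many events weigh most and a typical window may differ. Among strong windows with 3 or more events in all controls together, the median held 6, while 225 held over 20. Of the empty-control windows, 94.0, 69.2 and 78.9% again reached 20 EPM in the left-out QKI-5 replicate 1, 2 and 3. The choosing sets share libraries between the 3 rounds, so the ratios are not independent of each other and were not tested.

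**Figure D3:**
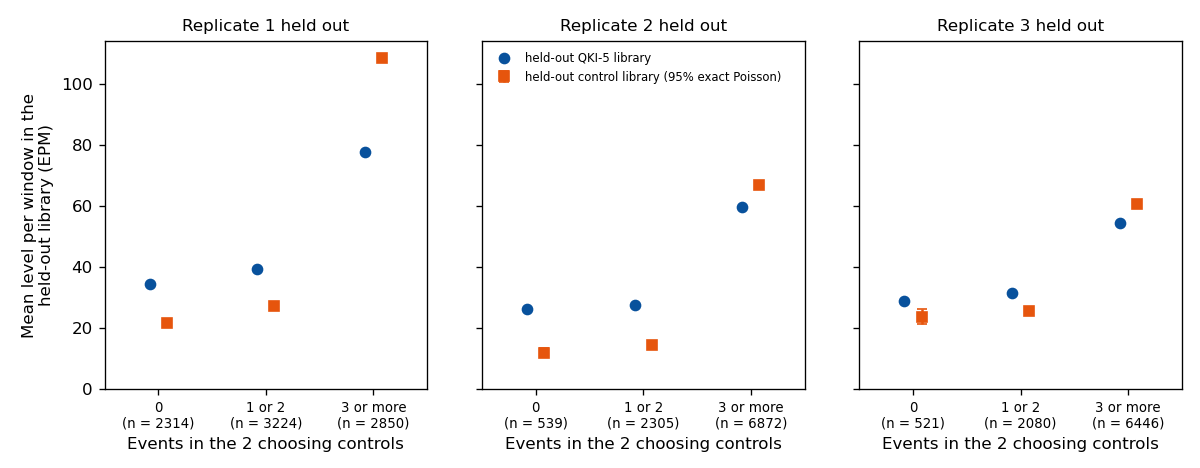
Mean level per window in the left-out QKI-5 library (circles) and the left-out control library (squares, bars are 95% exact Poisson intervals) in EPM on the y axis, by events in the 2 choosing controls on the x axis, for each replicate number left out. In windows with an empty choosing control the left-out control holds 21.7, 11.9 and 23.7 EPM, below the 34.6, 26.4 and 28.7 EPM of the left-out QKI-5 library.

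In the fit over all tested windows, 60 of the 250 members were called higher with the antibody (edgeR quasi-likelihood test, adjusted p under 0.05), where 0.754% of the 29960 tested windows were called higher. None was called lower in edgeR, where 0.107% of tested windows were, and the DESeq2 Wald test called 54 higher and none lower. The rule used this contrast, so the count describes the members and supports nothing. All 250 passed the filter on low counts and had an unadjusted p under 0.05, all of them in the higher direction. Leaving out control replicate 1, 2 or 3 gave 27, 6 and 30 called members, and scaling by library totals gave 7. The number of members itself was 2175 without control replicate 1, 411 without control replicate 3 and 383 without QKI-5 replicate 2.

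The windows next to the members on the same strand were not used by the rule. In QKI-5 replicates 1, 2 and 3 these 486 neighbours held 19.2, 17.0 and 18.1 EPM per window. In controls 1, 2 and 3 they held 12.4, 10.6 and 14.7 EPM. The groups did not overlap, and the means were 18.1 ± 1.13 and 12.6 ± 2.05 EPM (SD, n = 3 each), a ratio of 1.44. Nor did they overlap next to strong windows with 1 or 2 control events (ratio 1.22) or with 3 or more (ratio 1.17). With strong windows left out of the neighbours, an alternative added after the data were seen, the groups overlapped for both of these classes (ratios 1.08 and 0.984). They still did not overlap next to members (ratio 1.35). Control crosslinking thus resumed directly outside most members, and 383 of the neighbours (78.8%) held a control event. Next to strong windows with 1 or 2 and with 3 or more control events, 83.2 and 87.0% of neighbours did.

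Of the 486 neighbours, 344 were tested in the fit over all windows and 3 were called higher (0.872%, close to the 0.754% of all tested windows). Their median log2 fold change was 1.196 against 0.78 over all tested windows, and 219 of the 344 (63.7%) lay above that median. Neighbours of strong windows with 1 or 2 and with 3 or more control events had medians of 0.953 and 0.834. Of those, 56.6 and 52.3% lay above the median of all tested windows, and 0.957 and 1.29% were called higher. The 3 called neighbours, named for their small number after their values were seen, lay on chromosomes 5 (minus strand, from 79930001), 10 (minus strand, from 119120001) and 12 (plus strand, from 19310001). Their log2 fold changes were 2.96, 2.78 and 4.01, at edgeR adjusted p of 0.0306, 0.0468 and 0.0468. The window on chromosome 10 held 93.9, 85.9 and 92.8 EPM in the QKI-5 libraries, with 1 event in control replicate 2 and 3 in control replicate 3.

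The neighbours of members were compared with the neighbours of other strong windows. The level next to members, divided by that next to strong windows with 3 or more control events, was 0.621, 0.577 and 0.615 in QKI-5 replicates 1, 2 and 3 and 0.462, 0.451 and 0.561 in controls 1, 2 and 3. Every QKI-5 value exceeded every control value (two-sided exact permutation p = 0.1, the smallest that 3 against 3 libraries allow). Against the neighbours of strong windows with 1 or 2 control events the quotients were 0.889, 0.868 and 0.872 in QKI-5 libraries and 0.724, 0.722 and 0.780 in controls (two-sided exact permutation p = 0.1, n = 3 each). With strong windows left out of the neighbours, an alternative added after the data were seen, the groups again did not overlap in either comparison (two-sided exact permutation p = 0.1). In relative terms the control level was thus low next to the members too, while no test here could pass a threshold of 0.05. The classes were sorted by the counts of these same controls, and the permutation did not repeat that sorting. These comparisons therefore describe the neighbours and are not independent of the choice.

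The signal faded with distance. In QKI-5 replicate 1 the mean level was 32.6 EPM in the members, 20.5 and 18.3 EPM in the windows 10 kb to the left and right (lower and higher coordinates), and 11.6 and 11.7 EPM at 50 kb. In control replicate 1 it was 11.8 and 13.1 EPM at 10 kb and 9.75 and 8.47 EPM at 50 kb. All windows that are not strong averaged 3.47 EPM in QKI-5 replicate 1 and 3.36 EPM in control replicate 1. Members therefore sat within broader crosslinked stretches in both groups. Of the 250, 183 had a higher mean QKI-5 level than both neighbours, 150 had no strong neighbour, 75 had 1 and 25 had 2. A share of 60% had no strong neighbour, against 51.2% of strong windows with 1 or 2 control events and 30.1% of those with 3 or more.

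**Figure D4:**
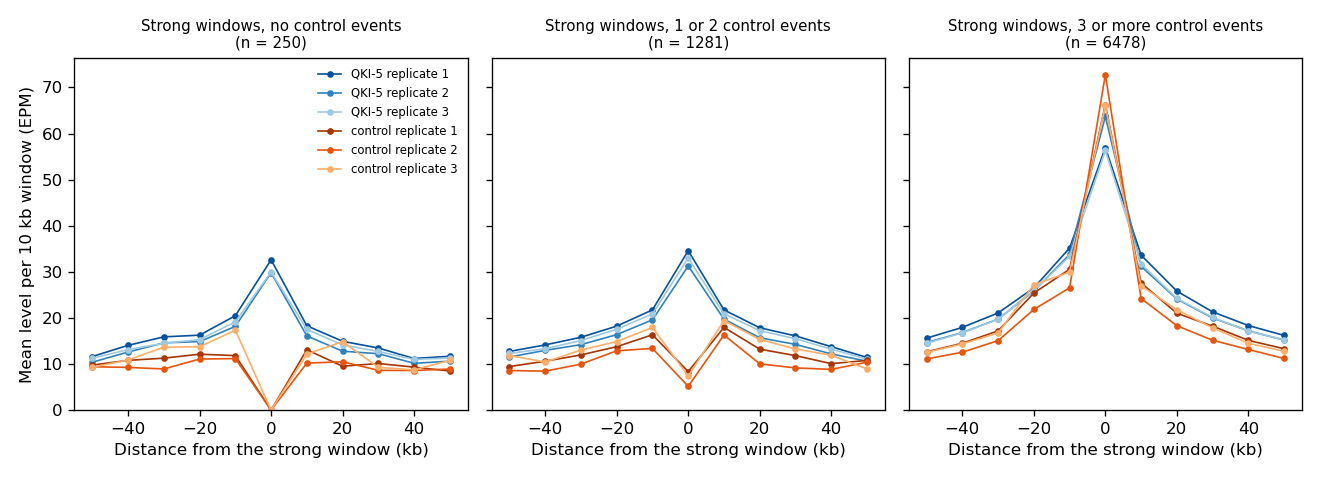
Mean level per 10 kb window (EPM, y axis) by distance from the strong window on the same strand (kb, x axis), one line per library, for members, strong windows with 1 or 2 and strong windows with 3 or more control events. Control lines drop to 0 in the members by the rule and stand at 10.2 to 17.3 EPM in the windows 10 kb away, below the QKI-5 lines on each side, at 16.1 to 20.5 EPM.

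The nearest control event on the same strand lay a median of 1612 nt outside the member (interquartile range 573 to 3250 nt), and within 10 kb for 233 of the 250. For strong windows with 1 or 2 control events the median distance to an event outside the window was 1258 nt, and for those with 3 or more it was 760 nt. Moving the window grid by 5 kb showed the same closeness. Only 43 members kept an empty control in both of the shifted windows that overlap them, 112 gained control events on one side and 95 on both sides.

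In 5 members, named after their values were seen, the nearest control event was more than 50 kb away. They lay on chromosome 2 (minus strand, from 10250001, 324261 nt, and plus strand, from 55750001, 215611 nt), chromosome X (minus strand, from 47510001, 170064 nt), chromosome 7 (minus strand, from 129240001, 164263 nt) and chromosome 15 (minus strand, from 83410001, 98628 nt). The first of these held 23.5, 24.7 and 32.9 EPM in the QKI-5 libraries. Its neighbours held a mean of 1.35 and 4.53 EPM in the QKI-5 libraries. The chromosome X window held 30.1, 48.5 and 22.8 EPM, with 5.73 and 0 EPM beside it. The chromosome 7 window held a mean of 25.3 EPM, with 9.69 and 9.99 EPM beside it. All 5 exceeded both neighbours in mean QKI-5 level, as did 183 of the 250 members. Their neighbours carried no control event either, which follows from how the 5 were picked.

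Each of the 12 strongest members had 2 to 10 control events in its 2 neighbours (median 3.5) and a control event within 55 to 4360 nt. Over all 250 members the median was 4.5 control events in the 2 neighbours, and 233 members had at least 1. All 12 exceeded both neighbours in mean QKI-5 level. Next to the strongest member, on chromosome 13, the left and right windows held 13.2 and 14.7 EPM in the QKI-5 libraries and 3 and 5 control events. On chromosome 4 they held 35.9 and 27.2 EPM and 2 and 1 control events.

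Almost all crosslinking in the members lay on one strand. The opposite strand of the same windows held 431 events in QKI-5 replicate 1, 0.721% of the events on both strands, and 0.696 and 0.984% in replicates 2 and 3. Opposite-strand events were seen in 53 of the 250 windows in QKI-5 replicate 1. In strong windows with 3 or more control events the shares were 3.53, 4.76 and 4.003%. In those with 1 or 2 control events they were 2.09, 1.79 and 2.18%. A small number of windows whose opposite strand was itself a strong window set that order. Without them, an alternative added after the data were seen, the 6450 windows left of the former class had shares of 0.554, 0.481 and 0.589%, below the members. The 1271 left of the latter had 0.967, 0.923 and 1.04%, above the members. No member had a strong window on its opposite strand. These shares were not tested.

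Events within the members clustered at short peaks. For each member the 31 nt with the highest level in 2 QKI-5 libraries were taken and read in the library left out, so that the peak was measured in a library that did not choose it. Positions printed below are those of the joint peak, the best 31 nt in the 3 libraries together. The shares beside them are the held-out ones, whose peaks can lie elsewhere in the window. An even spread would put 0.310% of a window's events in such a peak. The median share was 9.36, 8.73 and 7.88% in QKI-5 replicates 1, 2 and 3, and the mean over the 3 libraries had a median of 8.98% over the members (interquartile range 4.69 to 15.4%). In 40 members (16%) this mean was at least 20%, and in 68 (27.2%) it was under 5%. Without QKI-5 replicate 1, the deepest library, the median was 5.37%.

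The members' peak share was above that of strong windows with 3 or more control events, while its order against those with 1 or 2 depended on the peak width. The median of the mean share was 8.31% for strong windows with 1 or 2 control events and 6.51% for those with 3 or more. With the 31 nt peak the order was the same in each of the 3 libraries, with 8.49, 7.69 and 7.25% for the former and 6.21, 6.30 and 5.81% for the latter. With a peak of 11 nt the members had 4.07%, below the 4.15% of windows with 1 or 2 control events and above the 3.27% of those with 3 or more. With distinct positions the values were 6.68, 6.59 and 5.001% in the same order of classes. The members and the strong windows with 3 or more control events also differed in level and spread. Their median mean levels were 28.5 and 35.8 EPM. All 10 bins of 1 kb held events of each library in 16.4% of the former and 41.1% of the latter. Windows are not replicates, and the differences in peak share were not tested. Pooled over all events, the direction was the opposite: the peaks took 12.7, 12.3 and 10.6% of events in members and 16.1, 21.9 and 17.1% in strong windows with 3 or more control events.

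The most peaked member was the chromosome 5 window from 81010001 on the minus strand. Its held-out peak share was 59.4, 60.5 and 52.8% in QKI-5 replicates 1, 2 and 3, with the joint peak at chr5:81019064-81019094. The next, on chromosome 2, minus strand, from 128080001, had held-out shares of 49.5, 52.2 and 42.6% and its joint peak at chr2:128084897-128084927. Both windows showed the same dominant peak in all 3 libraries, and the start of the best peak differed by 9 and 10 nt between them. The window on chromosome 17, plus strand, from 64530001 had held-out shares of 49.0, 45.1 and 24.5% and its joint peak at chr17:64532133-64532163. There QKI-5 replicate 3 was the low library in level too, at 38.1 EPM against 65.6 and 76.5 EPM.

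At the other end, 3 members had almost no shared peak. They lay on chromosome 18 (minus strand, from 45400001), chromosome 12 (minus strand, from 46840001) and chromosome 10 (minus strand, from 119110001), and the peak held 0 to 1.18% of events in each library left out. The best peaks of the single libraries lay 7754, 8574 and 3997 nt apart in them. Their levels were ordinary for members, at means of 26.6, 26.8 and 23.5 EPM. Events were found in all 3 libraries in 9 or 10 of the 10 bins of 1 kb, so the signal was spread along the window. The chromosome 10 member borders the neighbour with 93.9 EPM in QKI-5 replicate 1 described above.

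**Figure D5:**
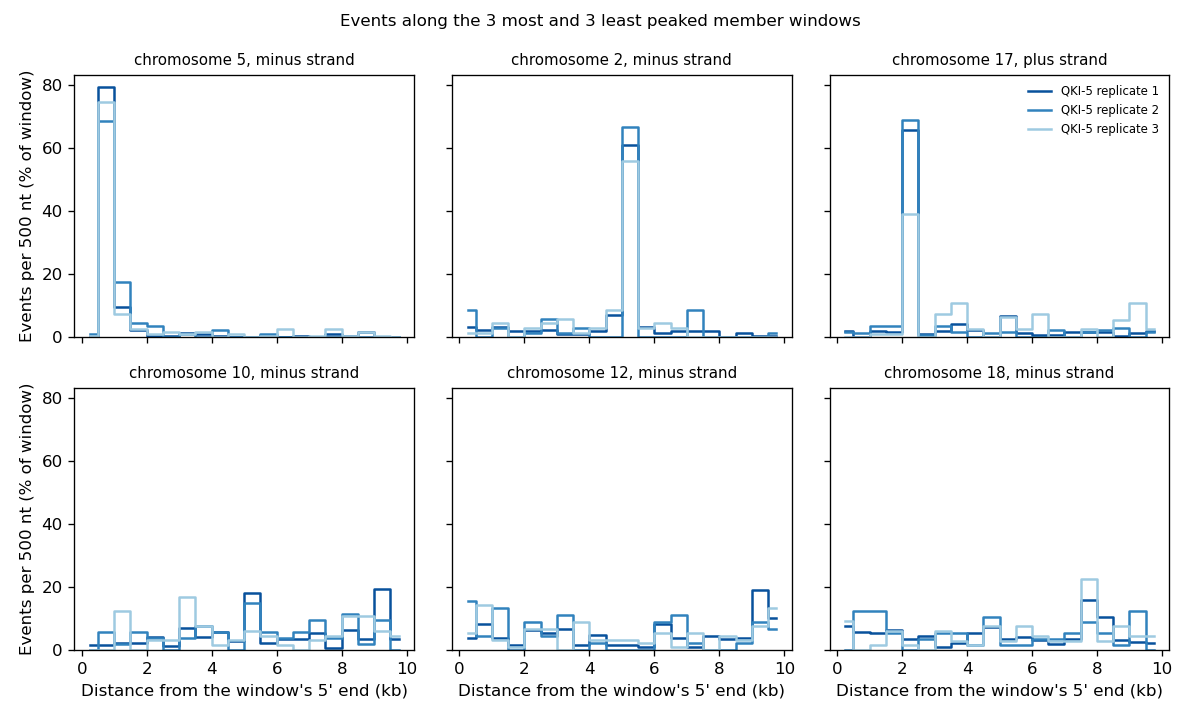
Share of the window's events per 500 nt (percent, y axis) by distance from the window's 5' end on its own strand (kb, x axis) in the 3 QKI-5 libraries, for the 3 members with the largest (top) and the 3 with the smallest (bottom) held-out peak share. The top windows have one dominant bin at the same place in all 3 libraries, and the bottom windows have none.

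Between these ends, the best peaks of the 3 libraries lay within 31 nt of each other in 65 of 250 members (26.0%), against 27.2% of strong windows with 1 or 2 control events and 24.4% of those with 3 or more. The members lay between the other classes in this respect. The event profile over 100 bins of 100 nt correlated between QKI-5 replicates 1 and 2 with a median Pearson r of 0.67 over the members, 1 and 3 with 0.66, and 2 and 3 with 0.54. These are descriptions over 100 bins that share depth and base composition within a library. A member held 134 to 518 distinct crosslinked positions in the 3 libraries together (median 223). Events per position had a median of 1.38, 1.54 and 1.67 in QKI-5 replicates 1, 2 and 3, close to the 1.34, 1.54 and 1.66 of strong windows with 3 or more control events. Repeated events at one position were thus about as common in members as there.

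Among the 12 strongest members, the mean held-out peak share ranged from 3.74 to 57.6% with a median of 11.1%. The strongest member, on chromosome 13, was not focal, with held-out shares of 4.43, 5.37 and 1.44% and its joint peak at chr13:42886122-42886152. The chromosome 7 member had held-out shares of 28.1, 33.0 and 12.4% and its joint peak at chr7:90039667-90039697. For the chromosome 10 member from 124180001 the shares were 17.8, 10.8 and 21.1% and the joint peak lay at chr10:124188042-124188072. A high level and a dominant peak were thus not the same property. The window on chromosome 14 had held-out shares of 18.4, 17.4 and 8.53% and its joint peak at chr14:97278674-97278704. Its best peaks of the single libraries lay only 2 nt apart, while in the second chromosome 13 member they lay 6843 nt apart.

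Neighbouring members formed 4 pairs, where 75 members had 1 strong neighbour and 25 had 2, and 3.12% of all strong windows were members. The pairs lay on chromosome 3 (plus strand, 45690001 to 45710000, and minus strand, 172360001 to 172380000), on the plus strand of chromosome 11 (43460001 to 43480000) and on that of chromosome 20 (9110001 to 9130000). The left window of the chromosome 20 pair held 54.6, 50.9 and 29.1 EPM and the right one 31.2, 43.4 and 28.4 EPM. QKI-5 replicate 3 was the low library in both. The left window, with its joint peak at chr20:9115887-9115917, had held-out shares of 25.1, 11.01 and 11.9%, and the right one 9.25, 4.30 and 1.22%. In the chromosome 11 pair the right window, with its joint peak at chr11:43477450-43477480, had held-out shares of 21.005, 22.4 and 13.3%, and the left one 17.1, 9.68 and 6.45%. The left window of the minus-strand pair on chromosome 3 held 29.4, 40.6 and 21.1 EPM, a wider range than the 21.3, 25.7 and 25.3 EPM of its right neighbour. The plus-strand pair held 23.5, 20.5 and 22.5 EPM on the left and 36.8, 26.1 and 35.0 EPM on the right.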

How the data were processed

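Crosslink events were mapped by iCLIP in 3 QKI-5 and 3 control libraries. The deposited files give a whole-number count of events for each position and strand, not normalized, with 1 library per file. Per the submitters' processing notes, the authors used cutadapt, Bowtie and the build hg19. Not given in the sources used here are versions, whether PCR copies were merged and what was done with reads that align more than once. Events were added up per 10 kb window and strand. Windows were tested with edgeR 4.0.16 (R 4.3.3, limma 3.58.1; quasi-likelihood test, TMM factors, filterByExpr, Benjamini-Hochberg adjustment over all tested windows) and, as an alternative, DESeq2 1.42.0. Held-out values, neighbours and peaks were computed with Python 3.11.15, numpy 2.4.6, pandas 2.3.3 and scipy 1.17.1. The edgeR fit and the held-out peak share were tested on simulated data. The rule with a replicate number left out and the neighbour comparison were not. Intervals and the floor of 3 events cover counting error only.

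The members and lists were chosen with earlier results of these data known. Named windows are the 12 with the highest lowest QKI-5 level, the 3 on each side of the limit, the 3 with the largest and the 3 with the smallest held-out peak share, and neighbouring members, plus those said to be named later. The planned share of events near QKI elements and the list of QKI targets need an hg19 sequence or annotation and were not analysed here.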

Additional observations from a re-analysis of the deposited data

How the results depend on the processing

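The number of members followed the rule's settings. It was 1646 at 10 EPM, 12 at 40 EPM and 159 with 20 kb windows, and lay between 271 and 2175 with 1 library left out, while 5 kb windows, a shifted grid, distinct positions and totals without the mitochondrial genome and 20 hot windows gave 220 to 351. Over all windows, edgeR called 226 higher and 32 lower. Library totals gave 23 and 58, distinct positions 26 and 66, DESeq2 size factors 85 higher, no filter 6 lower and the DESeq2 Wald test 130 lower. With 1 control left out, 52140 to 54850 windows were tested, and 50 to 831 were higher and 8 to 26 lower. With 1 QKI-5 library left out, only 892 to 951 windows were tested, against 29960 in the main fit. Of those, 28 to 102 were higher and 24 to 89 lower, so these counts do not compare directly. Called members numbered 60, then 7, 15 and 21 with library totals, distinct positions and DESeq2 size factors, and 6 to 30 with 1 control left out. Without a QKI-5 library no member passed the filter on low counts, so that alternative gave no value. The cause of these changes was not tested.

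With the replicate number as a block, 0 windows were higher, 0 lower and 0 members called (edgeR, smallest adjusted p = 0.200). Unadjusted, 2195 windows and all 250 members passed 0.05 in that fit, and DESeq2 with no block called 226 windows higher. Deviations of same-numbered libraries from their group means correlated at 0.00094, 0.105 and 0.0717 for numbers 1, 2 and 3. Those of differently numbered libraries correlated at -0.101 to 0.0551. With so few control events per window, these values cannot decide whether same-numbered libraries share more than a number.

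The median held-out peak share of 8.98% became 4.07% with a peak of 11 nt, 15.2% with a wider one and 6.68% with distinct positions, and 5.37 to 7.08% with 1 library left out. The ratio of QKI-5 to control next to members, 1.44, lay between 1.34 and 1.57 with 1 library left out, and was 1.16 over 5 windows on each side without strong windows.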

Other observations

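By chromosome, the members' share of the strong windows ranged from 1.39% (2 of 144) on chromosome 16 to 4.53% (11 of 243) on chromosome 4, leaving aside chromosome Y and the mitochondrial genome, where 24 and 4 strong windows held no member. Chromosome 1 had the most members, 29 of 866 strong windows. These counts are small and were not tested.

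Control events on the opposite strand were found in 3 members, named after their values were seen. The window on chromosome 6 (minus strand, from 153300001) had 3, that on chromosome 9 (minus strand, from 35730001) had 2 and that on chromosome X (minus strand, from 47340001) had 1. The left neighbour of the chromosome 9 member held a mean of 139 EPM in the QKI-5 libraries and 9 control events, against 26.1 EPM in the member itself.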
